A study of Mus musculus with 2 samples.

Results

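The 7 mouse genes of the Mir1, Mir206 and Mir133 muscle family, Mir206, Mir133b, Mir1a-1, Mir133a-2, Mir1a-2, Mir133a-1 and Mir1b, were chosen by their GENCODE M21 symbols. The rule uses no measured value, but the family was picked with earlier results of these data known. They are 7 of the 2202 microRNA genes in the tables. Every member had at least 1 read, and 5 members had at least 10 reads in both libraries, the minimum for a gene to be called detected and tested. The tissue was gastrocnemius, a calf muscle, taken from female B6CASTF1/J mice, which are hybrids of C57BL/6 and CAST/EiJ, at an age of 36 days. There were 2 small RNA libraries of 1 group, numbered as biological replicates 2 and 1, with no treatment, mutation or control tissue. The labels name different females for the libraries but give both the same donor identifier, so whether the spread between the libraries is that of animals or only technical cannot be told apart.

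The family members are the classical microRNAs of striated muscle. They lie in pairs of 1 Mir1-type gene (Mir1a or Mir206) and 1 Mir133-type gene, and each pair is known to be transcribed under myogenic factors such as MyoD and MEF2. A microRNA guides repression of messenger RNAs that match its seed, the bases 2 to 8 from its 5′ end. Mature miR-1 is known to promote muscle differentiation, for example by repressing the histone deacetylase HDAC4, and miR-133 is known to repress serum response factor and to favour proliferation of myoblasts. Mature miR-206 is specific to skeletal muscle, is richer in slow than in fast fibres, and is known to rise after loss of the motor nerve.

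In the gastrocnemius libraries Mir206 made up nearly all reads that could be placed on a family gene. Its 139295 reads in replicate 2 were 99.3% of the family's 140244 reads, and its 32871 reads in replicate 1 were 97.9% of 33575. The other 6 members together had 949 reads in replicate 2 and 704 in replicate 1, which is 0.0457% of the reads assigned to microRNA genes in replicate 2 and 0.0442% in replicate 1. Reads with matches at more than 1 genome position were assigned to no gene. They numbered 10919725 in replicate 2, or 5.25 for each of the 2078101 gene-assigned reads, and 7195252 in replicate 1, or 4.51 for each of 1593787. The counts of members with near-identical copies therefore cover only reads placed at 1 locus and do not measure the mature microRNA.

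The sequences of the Mir206, Mir133b and Mir1a-1 arms are shown because a read can be counted at a gene only where its sequence fits no other place. They are from RefSeq for the GRCm38.p6 build, in which 3 of the 7 members were matched, with 5 mature entries. Capitals mark the seed, and each sequence runs 5′ to 3′.
miR-206-3p: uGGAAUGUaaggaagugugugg
miR-206-5p: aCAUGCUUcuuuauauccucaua
miR-1a-1-5p: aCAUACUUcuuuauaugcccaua
miR-133b-3p: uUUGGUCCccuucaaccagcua
miR-133b-5p: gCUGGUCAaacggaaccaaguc
The seed of miR-206-3p was also found in the hairpins of Mir1a-1 and Mir1a-2, which is the basis for placing Mir206 with the Mir1 genes. Beyond the seed the sequences part. The nearest stretch to miR-206-3p in any other microRNA gene, on either strand, held 18 of its 22 bases and lay in Mir1a-1, Mir1a-2 and, on the other strand of the same place, Mir1b. Among the 1738 mature entries of the RefSeq table, miR-6349 and miR-6382 had the same seed as miR-206-3p, and their genes Mir6349 and Mir6382 had 0 reads in both libraries. The 5′ arms differed in the seed itself. Counted from 1 at the 5′ end of miR-206-5p, the changes towards miR-1a-1-5p were G5A, C17G and U19C, of which G5A lies in the seed.

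The seed of miR-133b-3p was found in all 3 Mir133 hairpins of the family. The first 21 of its 22 bases occurred unbroken in Mir133a-1 and Mir133a-2, so a read of it without the last base fits 3 loci. Mir133c, annotated as a further Mir133 gene and not a member here, had 0 reads in both libraries.

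The hairpins of Mir206 and Mir133b, which share a locus on chromosome 1, are shown whole because their counts differed most within any pair. Capitals mark the mature arms.
Mir206 hairpin: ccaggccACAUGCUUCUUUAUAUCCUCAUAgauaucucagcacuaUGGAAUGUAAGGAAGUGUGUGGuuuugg
Mir133b hairpin: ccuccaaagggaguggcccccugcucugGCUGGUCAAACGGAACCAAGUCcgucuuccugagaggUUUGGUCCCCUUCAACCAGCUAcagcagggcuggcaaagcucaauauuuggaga
Each hairpin was cut into all its windows of 20 bases, and each window was looked for on both strands of every microRNA gene at another place. The Mir206 hairpin of 73 bases had 54 windows and none was shared, nor was any window of 18 bases. The Mir133b hairpin of 119 bases had 2 shared windows of 100, both with Mir133a-1 and Mir133a-2. They cover bases 66 to 86 from the 5′ end, where miR-133b-3p lies at bases 66 to 87. The miR-133b-5p arm, at bases 29 to 50, lies outside that stretch. Of the 98 windows of 22 bases in the Mir133b hairpin, 0 were shared.

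The remaining members shared longer stretches with their copies. Mir1a-1 and Mir1a-2 had 1 stretch of 28 bases in common, at bases 45 to 72 of Mir1a-1 and 43 to 70 of Mir1a-2. The miR-1a-1-5p arm lies outside it, at bases 10 to 32. Mir133a-1 and Mir133a-2 had stretches of 24 and 31 bases in common. These covered 55 of the 68 bases of Mir133a-1 and left 32 of its 49 windows unshared. Of the 104 bases of Mir133a-2 they covered 55 as well, with 68 of 85 windows unshared. Over the whole annotation 1087 genes had at least 1 shared window, 6 of them in the family, and 66 (6.07%) of the 1087 were detected. Of the 1115 genes with no shared window 207 (18.6%) were detected, and Mir206 ranked 5 among these by mean level. The counts were made on the mm10 genome build, and no genome sequence was used here, so matches outside microRNA genes were not looked for.

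**Figure D1:**
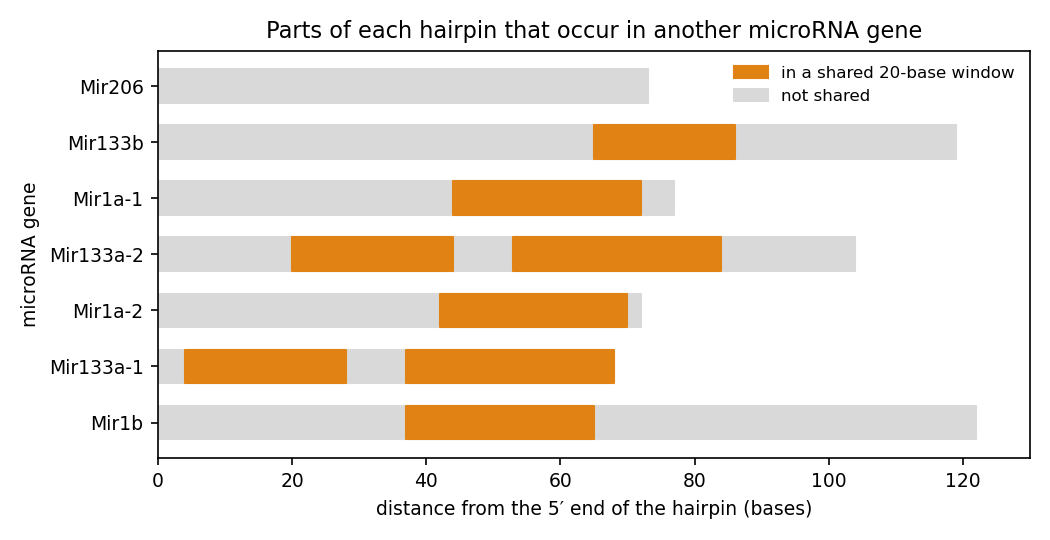
Parts of each hairpin found in another microRNA gene. Each bar runs from the 5′ end of a hairpin (x axis, bases), orange marks bases inside a 20-base window that also occurs in a microRNA gene at another place on either strand, and grey marks the rest; Mir206 has no orange part, Mir133b has 21 orange bases, Mir1a-1, Mir1a-2 and Mir1b have 28 each, and Mir133a-1 and Mir133a-2 have 55 each.

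The level of each member was expressed as counts per 1000000 gene-assigned reads (CPM). Mir206 had 67030 CPM in replicate 2 and 20624 CPM in replicate 1, a mean of 43827 CPM ± 32814 (SD, n = 2). It was the fourth most abundant microRNA gene in replicate 2 and held rank 13 in replicate 1, and by its mean it held rank 6. Mirlet7g and Mirlet7i stood next above it and Mir23a and Mir23b next below. Mir1a-2, a source of miR-1a, came next in the family with 402 CPM in replicate 2 and 368 CPM in replicate 1, a mean of 385 CPM ± 23.7 (SD, n = 2). It held rank 94 by its mean, next to Mir499 and Mir493 above and to Mir542 and Mir92-1 below. Mir1a-2 thus lay well under Mir206 in both libraries, without overlap.

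Mir133a-1, a source of miR-133a, had 20.7 CPM in replicate 2 and 29.5 CPM in replicate 1, a mean of 25.1 CPM ± 6.22 (SD, n = 2), at rank 222, with Mir668 and Mir194-2 above and Gm23935 and Mir370 below. Mir133b had 16.4 CPM in replicate 2 and 16.3 CPM in replicate 1, a mean of 16.3 CPM ± 0.0338. The genes next to it were Mir92-2 and mmu-mir-3535 above and, below Mir1a-1, Gm49347. Mir1a-1, the other source of miR-1a, had 11.5 CPM in replicate 2 and 20.1 CPM in replicate 1, a mean of 15.8 CPM ± 6.03, and below it stood Gm49347 and Mir450-2. The ranges of Mir133b and Mir1a-1 overlapped, so their order is not given by these libraries. Mir133a-2 followed with 5.77 CPM in replicate 2, from 12 reads, and 5.02 CPM in replicate 1, from 8 reads. Mir1b, which lies on the other strand of Mir1a-2, came last with 0.481 CPM in replicate 2, from 1 read, and 2.51 CPM in replicate 1, from 4 reads. A count of 0 would allow up to 1.44 CPM in replicate 2 and 1.88 CPM in replicate 1, from 3 counts in each, so Mir1b stood below that limit in replicate 2 and just above it in replicate 1. Apart from Mir133b and Mir1a-1, no neighbours in this order of levels overlapped between libraries, although the exact 95% counting intervals of several did. Those of Mir133a-1 and Mir133b overlapped in both libraries, and in replicate 2 they were 15.0 to 27.9 CPM for Mir133a-1 and 11.3 to 22.9 CPM for Mir133b. Those of Mir1a-1 (7.40 to 17.2 CPM) and Mir133a-2 (2.98 to 10.1 CPM) overlapped in replicate 2. Those of Mir133a-2 (2.17 to 9.89 CPM) and Mir1b (0.684 to 6.43 CPM) overlapped in replicate 1. In those libraries the order of these neighbours is within counting error.

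**Figure D2:**
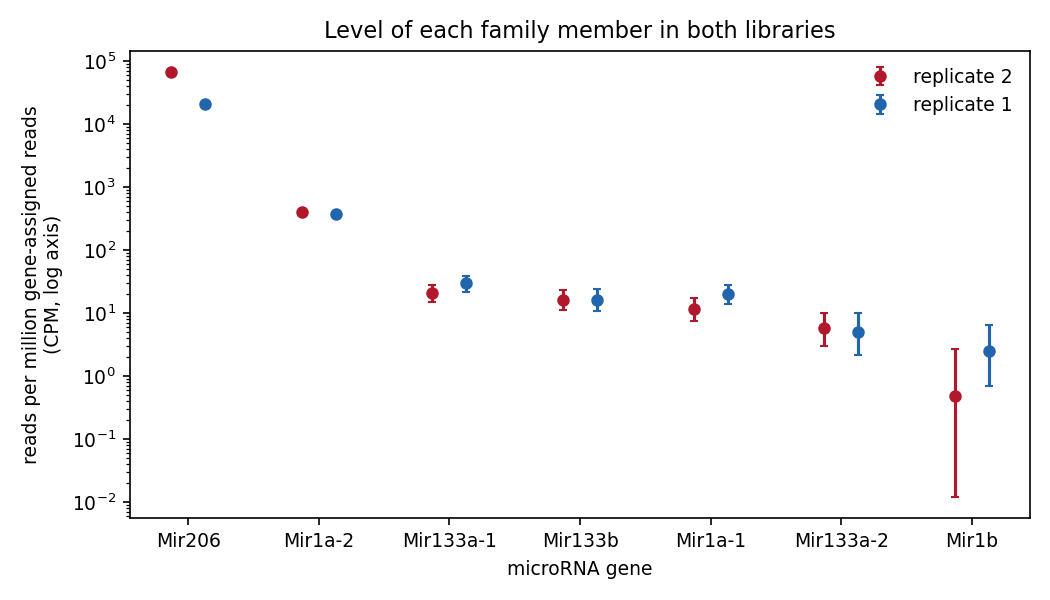
Level of each family member. The y axis gives CPM on a log scale, points are the replicate 2 (red, left) and replicate 1 (blue, right) libraries, and bars are exact 95% counting intervals, hidden by the points for Mir206 and Mir1a-2; Mir206 lies at 67030 CPM in replicate 2 and 20624 CPM in replicate 1, apart from Mir1a-2, the next member, at 402 CPM in replicate 2 and 368 CPM in replicate 1.

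The counts set neighbouring genes of 1 locus far apart. The locus on chromosome 1 holds Mir206 (chr1:20679010-20679082) and Mir133b (chr1:20682769-20682887), both on the plus strand with 3686 bases between them. Both overlap exons of the long noncoding RNA gene Gm28653 in GENCODE, and both lie within the RefSeq gene Lincmd1, known in mouse myoblasts as a decoy for miR-133. In replicate 2 there were 139295 reads of Mir206 and 34 of Mir133b, a ratio of 4097. In replicate 1 there were 32871 reads of Mir206 and 26 of Mir133b, a ratio of 1264. The log2 difference in reads, with 1 read added to each count, was 11.96 in replicate 2 and 10.25 in replicate 1, a mean of 11.10 ± 1.21 (SD, n = 2). The ratio itself was 3.24 times higher in replicate 2 (95% counting interval 1.87 to 5.56), a value that needs no scaling of the libraries. Mir206 and Mir133b did not keep a constant ratio of placed reads.

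The locus on chromosome 18 holds Mir1a-2 (chr18:10785481-10785552) and Mir133a-1 (chr18:10782909-10782976), on the minus strand with 2504 bases between them, in introns of their host RNA gene Mir133a-1hg. It lies within an intron of Mib1, a ubiquitin ligase gene transcribed from the other strand. Mir1a-2 had 835 reads in replicate 2 and 587 in replicate 1, and Mir133a-1 had 43 in replicate 2 and 47 in replicate 1. The ratio of Mir1a-2 to Mir133a-1 was 19.4 in replicate 2 and 12.5 in replicate 1, and it changed by a factor of 1.55 (0.991 to 2.44), an interval that includes 1. The log2 difference was 3.93 ± 0.45 (SD, n = 2).

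The locus on chromosome 2 holds Mir1a-1 (chr2:180389048-180389124) and Mir133a-2 (chr2:180398379-180398482) on the plus strand, 9254 bases apart, with no other GENCODE M21 gene at either and within the RefSeq gene Mir1a-1hg. Mir1a-1 had 24 reads in replicate 2 and 32 in replicate 1, and Mir133a-2 had 12 in replicate 2 and 8 in replicate 1. Their ratio was 2 in replicate 2 and 4 in replicate 1, and its change of 0.505 times had an interval of 0.153 to 1.59. In all 3 loci the Mir1-type gene had more placed reads than its Mir133-type neighbour, in both libraries. In all 3 the Mir133-type hairpin also had more bases in shared windows. These were 21 in Mir133b against 0 in Mir206, and 55 in each Mir133a gene against 28 in its Mir1a neighbour. Between loci, equal sharing came with unlike levels. Mir1a-1 and Mir1a-2, with 28 such bases each, had mean levels of 15.8 CPM and 385 CPM. The part of this sharing in the order of counts was not tested.

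Copies of 1 mature microRNA were also counted unequally. Mir1a-2 had 34.8 times the reads of Mir1a-1 in replicate 2 and 18.3 times in replicate 1, although both give miR-1a. The ratio was 1.90 times higher in replicate 2 (1.07 to 3.40). Mir133a-1 had 3.58 times the reads of Mir133a-2 in replicate 2 and 5.88 times in replicate 1, and the change of 0.613 times (0.197 to 1.81) was within counting error. These counts come from parts of the hairpins that differ between the copies, or from reads that the mapping could place at 1 of them, and which parts the reads covered is not recorded in the counts.

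Mir1b (chr18:10785446-10785567) covers the whole of Mir1a-2 on the opposite strand. Its reads were 0.120% of those on both strands in replicate 2 (95% exact binomial interval 0.00303% to 0.665%, 1 of 836) and 0.677% in replicate 1 (0.185% to 1.72%, 4 of 591). The reads of Mir1a-2 stand as opposite-strand counts at Mir1b and the other way round. With strand disregarded both genes were listed at 0 in both libraries, although each strand of this place held reads. Such a 0 is therefore no absence of reads. The counts of the other 5 members did not change. No read lay on the opposite strand at those 5 members.

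Between the libraries Mir206 had a higher fold than the sum of the other members. The ratio of its reads to those of all 6 other members was 147 in replicate 2 and 46.7 in replicate 1, 3.14 times higher in replicate 2 (95% counting interval 2.85 to 3.47). For every detected gene the split of reads over both libraries was set against the ratio of their TMM-scaled sizes in an exact two-sided binomial test, with Benjamini-Hochberg adjustment at 0.05 over all 273 detected genes. The test compares 2 libraries, covers counting error only and says nothing of a condition. It called 63.0% of all tested genes, 33.3% as higher in replicate 2 and 29.7% as lower. Of the 5 detected members 2 were called higher, Mir206 and Mir1a-2, and 3 were not called, so the count of called members is no more than the share over all genes would give. The median log2 fold was 0.07 over the 5 members and 0.02 over the 273 genes.

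The fold of Mir206 between the libraries was 3.40 (interval 3.36 to 3.45), higher in replicate 2, on 139295 reads in replicate 2 against 32871 in replicate 1. This fold ranked 6 among the 273 tested genes, which all had at least 10 reads in both libraries. Genes with fewer reads in either library were outside this ranking. Among them Mir208b had a higher fold of 143 (61.0 to 441), and Mir208a one of 12.05 (1.85 to 507). The 5 tested genes with higher folds, Mir499, Mir375, Gm26117, Mir190b and Mir181a-2, had mean levels of 35.3 to 394 CPM, against 43827 CPM for Mir206. Mir375, Gm26117 and Mir190b were named after their values were seen. Among the 20 most abundant genes the fold of Mir206 was the highest, followed by 1.52 for Mir23a, and Mir451a was the lowest with 0.253. In edgeR's exact test, run with a common dispersion that came from the same libraries and so holds their difference, Mir206 did not pass (adjusted p = 0.365), and 1.47% of the genes did. The coefficient of variation behind that dispersion was 0.335.

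The fold of Mir1a-2 was 1.14 (1.03 to 1.27), higher in replicate 2 (binomial adjusted p = 0.0231, 835 reads in replicate 2 against 587 in replicate 1). This call ended with scaling by total reads, where the fold was 1.09, and also with Mir378a left out of the scaling, with no filter on reads and in edgeR's test. Scaling by gene-assigned and multiply mapped reads together turned it to 0.962. Mir133b had a fold of 1.05 (0.612 to 1.82), Mir133a-1 of 0.735 (0.474 to 1.14) and Mir1a-1 of 0.603 (0.340 to 1.06), and none of these 3 passed. With multiply mapped reads in the scaling Mir133b turned to 0.884, and Mir133a-1 and Mir1a-1 passed as lower, with folds of 0.619 and 0.507. Their intervals exclude the 3.40-fold difference of Mir206, and they do not show that the levels were equal. Mir133a-2, with a fold of 1.21 (0.453 to 3.40), and Mir1b, with 0.201 (0.00408 to 2.03), had too few reads to be tested. All 6 members other than Mir206 together had a fold of 1.08 (0.981 to 1.20).

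**Figure D3:**
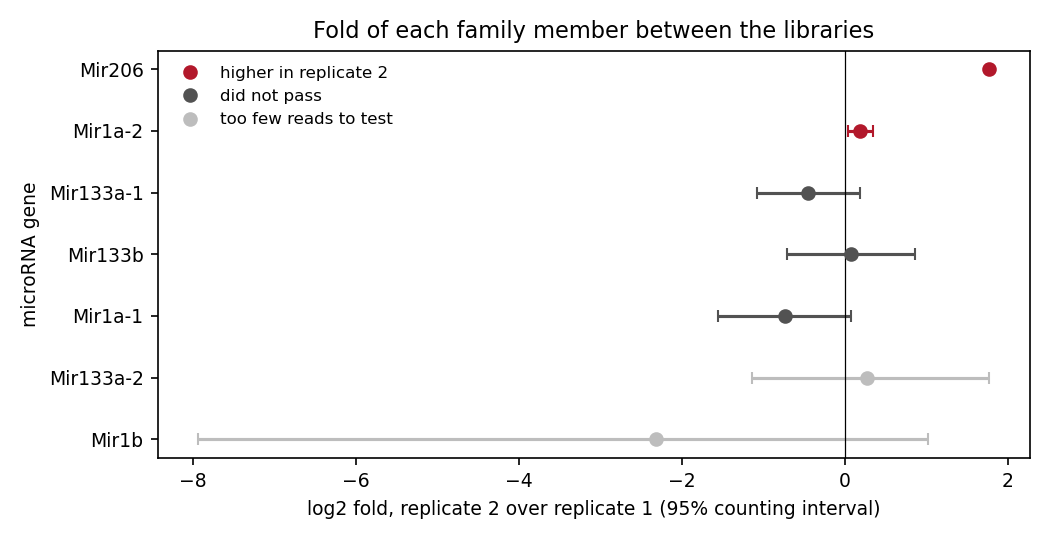
Fold of each member between the libraries. The x axis gives the log2 fold of replicate 2 over replicate 1 after TMM scaling, with exact 95% counting intervals as bars; Mir206 lies at 1.77, Mir1a-2 at 0.19, and the intervals of the other 5 members include 0.

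**Figure D4:**
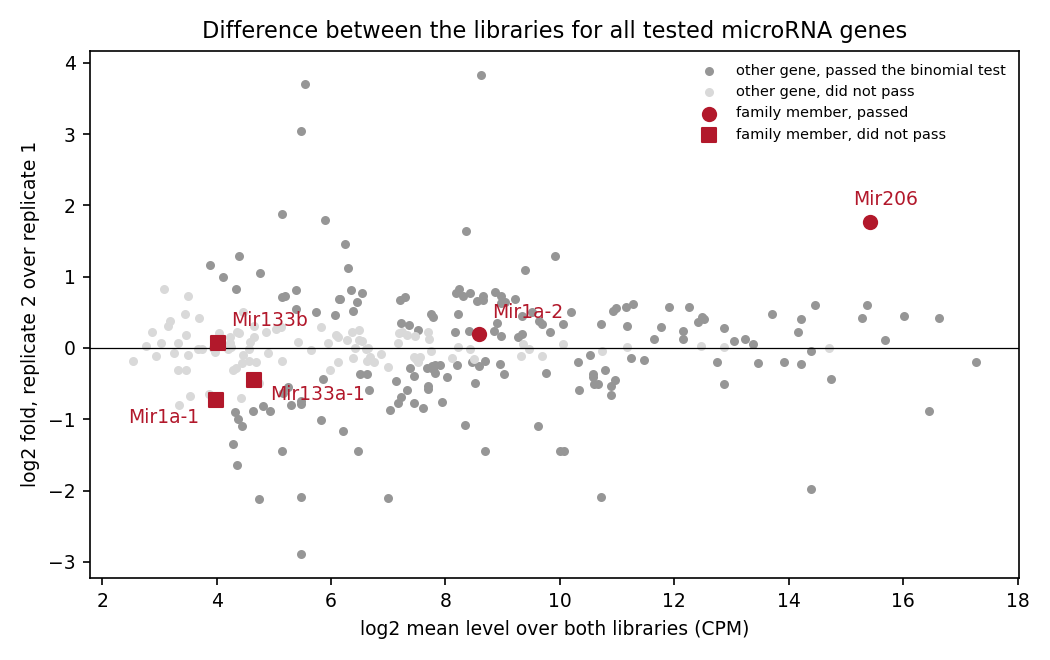
All 273 tested microRNA genes. The x axis gives the log2 of the mean CPM, the y axis the log2 fold of replicate 2 over replicate 1, and red marks the 5 detected members, with circles for those that passed the binomial test and squares for those that did not; Mir206 lies at 1.77, apart from the other abundant genes, and the other 4 members lie between -0.73 and 0.19.

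The genes most like Mir206 in the direction and size of this difference were Mir181a-2, Mir146, Mir128-2, Mir155 and Mir30c-1, by the absolute difference of log2 ratios over 2 libraries. The genes compared were those of the 187, Mir206 included, that averaged 100 reads or more. Mir181a-2 differed from Mir206 by 0.03 on the log2 scale, Mir146 by 0.12, Mir128-2 by 0.31, Mir155 by 0.48 and Mir30c-1 by 0.64. Mir181a-2 had 191 reads in replicate 2 and 44 in replicate 1, and Mir146 had 1028 in replicate 2 and 264 in replicate 1. Both were higher in replicate 2, as was Mir206. With 2 libraries the likeness is a single ratio for each gene.

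Of 5 other listed microRNAs enriched in striated muscle 4 were matched by GENCODE M21 symbol and 1, Mir486b, was not. A gene annotated under another name would be missed by this matching. Of the matched genes both that were detected, Mir499 and Mir486, were called higher in replicate 2, as were 33.3% of all tested genes. Mir499, in the myosin gene Myh7b, had 1527 reads in replicate 2 and 86 in replicate 1. Mir486, in the ankyrin gene Ank1 and made in muscle and red cells, gave 2431 reads in replicate 2 and 1549 reads in replicate 1, a fold of 1.26 (1.18 to 1.34). For Mir208b, hosted by Myh7 of slow fibres, replicate 2 gave 889 reads and replicate 1 gave 5. Mir208a, in the heart myosin gene Myh6, had 15 reads in replicate 2 and 1 in replicate 1. Neither of these was tested. The summed reads of the 4 genes were 0.234% of gene-assigned reads in replicate 2 and 0.103% in replicate 1.

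Of 17 microRNAs of muscle differentiation 16 were detected, 6 were called higher in replicate 2, 4 lower and 6 did not pass. The share called is near the 63.0% over all tested genes and is no result about this list. Its median log2 fold was 0.10, against 0.02 over all tested genes. Its most abundant members were Mir378a with a fold of 0.869 (0.864 to 0.873), Mir322 with 1.04 (1.02 to 1.06), Mir27b with 1.18 (1.14 to 1.21) and Mir29a with 0.634 (0.605 to 0.666). The highest folds among its tested members were those of Mir181a-2 with 3.49 (2.50 to 4.96), Mir24-1 with 2.45 (1.46 to 4.29) and Mir155 with 2.44 (2.27 to 2.63), all called higher. The other Mir181a and Mir24 genes of the list, each with more reads, went otherwise. Mir181a-1 had a fold of 0.788 (0.685 to 0.906) and was called lower. Mir24-2 had 1.135 (0.9605 to 1.342) and was not called. The members of this list thus lay on both sides of 1.

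The calls of other cell types' markers are given beside those of Mir206 as values, since the same test called 63.0% of all 273 genes, and their part in the Mir206 difference was not tested. In bulk tissue fewer cells of a type and less RNA per cell cannot be told apart. Both smooth muscle markers were called lower in replicate 2, and Mir143 and Mir145a summed to 6.25% of gene-assigned reads in replicate 2 and 12.0% in replicate 1. Both erythroid markers, Mir451a and Mir144, were called lower, at 0.898% in replicate 2 and 3.73% in replicate 1. Of 4 endothelial markers 3 were detected and 1, Mir126a, was called higher, with sums of 11.3% in replicate 2 and 8.86% in replicate 1. Of 4 leukocyte markers 2 were called higher (Mir155 and Mir150) and 2 lower (Mir142 and Mir223), at 0.209% in replicate 2 and 0.142% in replicate 1. Of 4 fibroblast markers 3 were detected, with Mir214 called higher and Mir199b lower, at 0.0698% in replicate 2 and 0.0652% in replicate 1, and Mir199a-1 had no read. Of 7 nerve and glia markers only Mir338 was detected and called lower, at 0.0532% in replicate 2 and 0.151% in replicate 1. Mir9-1, Mir9-2 and the 3 Mir124a genes had no placed read in either library. A lack of placed reads, also at Mir199a-1, does not show that a mature microRNA was absent. Reads that matched several places were assigned to no gene. The tissue label itself is met by Mir206, the skeletal muscle marker, in both libraries. The other skeletal muscle genes, Mir1a-1, Mir1a-2, Mir133a-1, Mir133a-2 and Mir133b, each had placed reads in both libraries but have the shared stretches described above.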

How the data were processed

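Raw read counts per microRNA gene were deposited by the authors. Per the file headers of their read-me, mm10 and GENCODE M21 were used. Aligner and counter: not given in the sources used here. The tables have 3 count columns without a header, read from layout and values as counts without regard to strand, on the strand of the gene and on the opposite strand. The second was used. The 4 summary rows entered neither totals nor tests. Among these, 77.6% of 14072830 reads in replicate 2 and 75.4% of 9538917 in replicate 1 matched several places. Counts do not separate the arms of a hairpin, and adapters join to sequences with unequal efficiency. Reads carry no molecular identifiers, so intervals cover counting error only.

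Members and lists were chosen with earlier results of these data known. Genes were named by rule: all members, the muscle lists, cell type markers, the 5 genes nearest to Mir206 in log2 ratio and the 2 genes above and below each detected member in level. Tests were two-sided exact binomial tests over all 273 detected genes, with TMM factors and a common dispersion from edgeR 4.0.16 in R 4.3.3. Ratios of ratios are conditional odds ratios with exact intervals, chosen after the data were seen. Hairpin windows were taken from the GENCODE M21 transcript sequences. The binomial calls were tested on simulated counts that held counting error only. With no gene changed, 0% of 283 tested genes were called. Such a simulation does not cover other variation between the libraries. Other tools were scipy 1.17.1 for tests, pandas 2.3.3 with numpy 2.4.6 for tables and matplotlib 3.10.9 for figures, all in Python 3.11.15. Alternatives were strand, scaling, read minimum, total, pseudocount, dispersion and leaving out each replicate.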

Additional observations from a re-analysis of the deposited data

Results flagged for a closer look

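Many reads of both libraries fell into classes that give no member its count. Reads that match several places, which hold any read from the stretches shared between family copies, numbered 10919725 in replicate 2 and 7195252 in replicate 1. A further 232773 reads of replicate 2 and 142257 of replicate 1 had a single place, which was in no microRNA gene. How many of either kind belong to the family is not recorded in the counts.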

How the results depend on the processing

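Of the 7 members, 5 were detected at 10 reads in both libraries, 2 at 50 reads, and 5 to 6 when either replicate was left out. The family's share of gene-assigned reads averaged 4.43% and was 0.730% with multiply mapped reads added to the total. Without replicate 1 or 2 it ranged from 2.11% to 6.75%. In place of 2 called members, 1 was called with scaling by total reads, with no filter and with Mir378a left out of the scaling. Without regard to strand 1 was called too, but there Mir1a-2 was listed at 0 reads and could not be tested. With edgeR's exact test at a common dispersion 0 members were called. There 1 member, Mir206, had an unadjusted p under 0.05 (0.0134), and its fold of 3.40 kept its size without passing. Scaling by gene-assigned and multiply mapped reads, which lowers every log2 fold by 0.249, turned Mir133b to 0.884 and Mir1a-2 to 0.962, neither of them passing, and made the folds of Mir1a-1 (0.507) and Mir133a-1 (0.619) pass as lower. The fold of Mir206 then was 2.87. Over all genes the balance of 91 higher and 81 lower became 56 and 120 with that scaling, 78 and 92 with total reads, and 81 and 99 with no filter. No paired analysis was possible because the design has 1 group. Mir133a-2 and Mir1b had too few reads to be tested.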
